A study of Mus musculus with 3 samples.

Results

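Peptidergic sensory neurons that carry transcripts of both calcitonin gene-related peptide (CGRP, gene Calca) and pituitary adenylate cyclase-activating polypeptide (PACAP, gene Adcyap1) were taken from a single-cell RNA library of mouse dorsal root ganglia, the ganglia that hold the cell bodies of sensory neurons. A neuron was a droplet barcode with at least 10000 unique molecular identifiers (UMIs, 1 for each captured transcript) and a UMI of at least 5 of 8 pan-neuronal genes (Rbfox3, Snap25, Tubb3, Avil, Prph, Isl1, Scn9a and Uchl1). The peptidergic neurons among them had at least 1000 CPM of Calca and at least 200 CPM of Adcyap1 (CPM is the UMI count of a gene scaled by the cell's UMI total), and under 50 CPM of each of Chrna3, Mrgprd, Nppb and Trpm8, which mark other sensory classes. Of 2948 neurons 734 met the rule, a share of 24.9% (95% exact binomial interval 23.3% to 26.5%), out of 23566 barcodes of the library and 81584 of the series. Galanin (Gal) was at or above 300 CPM in 433 of the 734 (59.0%, 55.3% to 62.6%), called Gal-high below, and under it in 301, called Gal-low. All intervals are at 95% and cover counting error alone.

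The study asked how sensory nerves and fibroblast growth factor 1 (FGF1) bear on degeneration of tendon, and holds 3 droplet libraries (10x Genomics Chromium), of which the ganglion library is described here and both tendon libraries are not. C57BL/6 mice received 5 µL of AAV-PHP.S-tdTomato, an adeno-associated virus that carries a red fluorescent reporter, in the sheath of the left Achilles tendon at 4 weeks of age. Ganglia from L4 to S1 were collected 4 weeks later, and 18 ganglia of 6 mice were pooled, so that the library holds 1 condition. One label calls the virus a lentivirus. The treatment protocol names ganglia of both sides and the series design names the injected side alone, and no barcode is tied to a side. With 1 pooled library no spread between animals could be measured. Every difference below is therefore between sets of cells of 1 library and has no test.

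Peptidergic nociceptors release CGRP and substance P from large dense-core vesicles, both in the spinal cord and from their peripheral endings, where the peptides dilate vessels and act on immune and stromal cells. They depend on nerve growth factor during development, and many respond to heat and to capsaicin through Trpv1. PACAP and galanin are further peptides of these neurons, and galanin is also known as a gene that sensory neurons raise after nerve injury.

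The rule set the levels of its own genes, which are given here as a description. Calca in single peptidergic neurons had a lowest, median and highest value of 1012, 6178 and 22649 CPM, and Adcyap1 had 202, 1304 and 3575 CPM. The Calca threshold had 1012 CPM just inside and 948 CPM just outside, with 7 neurons within 25% above it and 17 within 25% below, of 83 that failed on Calca alone. The Adcyap1 threshold had 202 CPM just inside and 198 CPM just outside, with 18 neurons within 25% above it and 16 within 25% below. Of 1534 neurons with Calca at 1000 CPM or more, 909 also passed on Adcyap1, and 734 of these 909 (80.7%) passed on the 4 other genes. Chrna3, a nicotinic receptor subunit of silent nociceptors, took out 118 of the 909, 108 of them with no help from the other genes. Trpm8, the cold and menthol channel, took out 27, Mrgprd, a receptor of nonpeptidergic nociceptors, took out 24, and Nppb, the peptide of itch neurons, took out 16. The Gal split cut through a filled range, from 300.4 CPM just above to 299.0 CPM just below, with 41 neurons within 25% above it and 43 within 25% below.

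**Figure D1:**
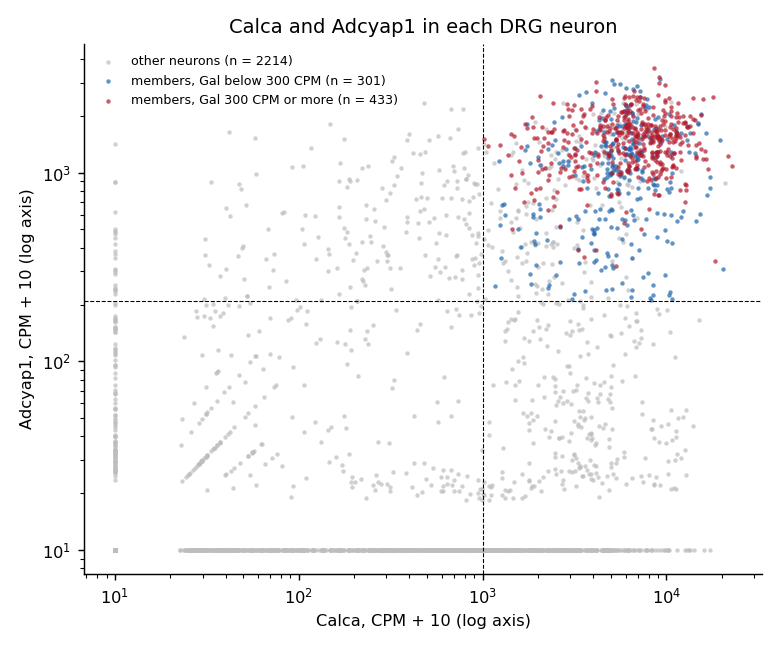
Calca (x axis) against Adcyap1 (y axis) in each of the 2948 neurons, in CPM plus 10 on log axes, with dashed lines at 1000 and 200 CPM. The 734 peptidergic neurons fill the upper right corner, Gal-high cells (red) and Gal-low cells (blue) overlap there, and the 48 members with Adcyap1 under 400 CPM are 43 Gal-low and 5 Gal-high cells, while grey points in that corner are neurons that failed on Chrna3, Mrgprd, Nppb or Trpm8.

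The peptidergic neurons held 10098 to 98251 UMIs with a median of 46986, against 55319.5 in the 2214 other neurons and 3422 over all barcodes, and a median of 7745 genes. Their mitochondrial share had a median of 5.05% and a highest value of 14.8%. Gal-low cells were deeper than Gal-high cells, with medians of 50107 and 45064 UMIs. Satellite glial RNA was present, since 7 glial markers, among them Fabp7, Apoe, Kcnj10, Glul, Fbxo2 and Sparc, together reached 1000 CPM in 255 of the 734 (34.7%, 31.3% to 38.3%) and in 26.8% (25.0% to 28.7%) of the other neurons. Their summed level per peptidergic neuron ran from 82.3 over a median of 612 to 22159 CPM. It was 84546 CPM in 283 glial barcodes (at least 10000 UMIs, Fabp7 at 500 CPM or more and at most 2 of the pan-neuronal genes), which are given below beside the neurons. They hold transcripts of their own and were chosen to hold few neuronal ones. Their levels can therefore lie above or under what free RNA gives. Markers of other cells summed to 784 CPM for 7 Schwann cell genes (a median of 647 and a highest value of 7446 CPM per cell), 189 CPM for 6 fibroblast genes (median 29.5, highest 5845), 71.2 CPM for 5 endothelial genes and 17.0 CPM for 6 macrophage genes. In the other neurons the same lists summed to 1031, 87.8, 54.0 and 17.2 CPM, and in the glial barcodes to 4068, 1086, 166 and 415 CPM. The part of such RNA in the results was not tested, other than by leaving out the glial-rich neurons. A doublet caller marked 5 of the 734. Of the 734 barcode sequences 3 also occur in the neurectomy tendon library and 6 in the sham tendon library.

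Transcripts of the precursors of substance P, galanin and CART were each several times higher in the peptidergic neurons than in the other neurons. Tac1, which encodes substance P, stood at 3852 CPM summed over the peptidergic neurons against 610.1 CPM in the other neurons, a log2 ratio of 2.66 (2.65 to 2.67). Single peptidergic neurons had a lowest, median and highest Tac1 of 0, 3274 and 18818 CPM, and the middle 50% of them (2196 to 5095 CPM) lay above the middle 50% of the other neurons (19.8 to 540.4 CPM). The full ranges overlapped, since the highest other neuron reached 19394 CPM and 719 of the 734 had a UMI. After each cell was thinned to 10000 UMIs, Tac1 was detected in 97.1% of the peptidergic neurons, 61.2% of the other neurons and 3.89% of the glial barcodes, whose median depth before thinning was 11951 UMIs. Galanin was at 471 and 59.0 CPM, with a lowest, median and highest value per peptidergic neuron of 0, 411 and 4366 CPM. In the Gal-low cells it was detected in 70.1% at full depth and in 44.5% after thinning, against 1.06% of thinned glial barcodes. Because the glial barcodes were chosen to hold few neuronal transcripts, their share can lie under what free RNA gives. Whether galanin in the Gal-low cells lies above the level of free RNA was not tested. Cartpt, which encodes the peptide CART, was at 332 CPM against 37.0 CPM, but unevenly, from 0 over a median of 121 to 5456 CPM.

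Of 24 neuropeptide and granin genes, 13 entered the comparison with the other neurons, which asked for at least 50 summed UMIs and 20 CPM in the higher set and left out the rule's genes. At least 2-fold higher in the peptidergic neurons were 6 and at least 2-fold lower 3, with a median log2 ratio of 0.89. Of all 7332 genes that entered, 7.13% were 2-fold higher and 4.65% 2-fold lower, with a median log2 ratio of 0.13, which is the level against which the ratios are read. Besides Tac1, Gal and Cartpt, the higher genes were Bdnf, a neurotrophin that nociceptors package and release like a peptide (393 and 157 CPM), Scg2, a granin that yields secretoneurin (826 and 229 CPM), and Vgf, a granin-like precursor regulated by neurotrophins (180.2 and 75.2 CPM). Scg2 had 54.0, 739 and 2854 CPM as lowest, median and highest value, so that no peptidergic neuron was without it. The lower genes were Sst, Nts and Penk. By the rule, every neuron with Chrna3, Mrgprd, Nppb or Trpm8 at 50 CPM or more is among the other neurons. Genes that go with those 4, such as Sst with Nppb in itch neurons, can therefore be low through the rule itself, here and below. Sst, which encodes somatostatin, had 3 UMIs over all 734 neurons and a log2 ratio of -8.94 (-11.22 to -7.39), and Nts, which encodes neurotensin, had 10 UMIs and -8.14 (-9.20 to -7.26). Penk, the enkephalin precursor, was at 1.47 and 28.3 CPM, a log2 ratio of -4.26 with all neurons and -6.53 without those rich in glial markers. Calcb, which encodes the second CGRP peptide, did not follow Calca, with 366 CPM against 429 CPM. Chgb, another granin, was at 39.1 and 21.1 CPM, and Nmb, which encodes neuromedin B, at 132 and 141 CPM.

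Enzymes and vesicle proteins of the peptide pathway were split. All 13 genes of this list entered, with 4 at least 2-fold higher, 4 at least 2-fold lower and a median log2 ratio of 0.37. Higher were Pcsk1, a prohormone convertase (92.9 and 42.0 CPM), Ptprn and Ptprn2, the membrane proteins of dense-core vesicles IA-2 and phogrin (261 and 91.4 CPM, 89.0 and 42.8 CPM), and Syt4, a synaptotagmin of such vesicles (1765 and 877 CPM). Pam, which amidates peptides such as CGRP and substance P, stood at 829 and 417 CPM, a log2 ratio of 0.99 (0.97 to 1.01). Lower were Scg3 (136 and 457 CPM), Cpe, which trims the basic ends of cut peptides (217 and 440.1 CPM), Cadps2 and Syt7. With equal weight for each cell, Pcsk1 and Ptprn2 fell short of 2-fold, at log2 ratios of 0.88 and 0.83, as did Syt4 at 0.96 without the neurons rich in glial markers. Pcsk2, the other neuronal convertase, was at 190.0 and 177 CPM. Transmitter release genes showed little of this, with 1 higher and 2 lower of 15 and a median of 0.01. The higher gene, Sv2a, fell short of 2-fold with equal weight for each cell (log2 ratio 0.66) and after thinning (0.72). The vesicular glutamate transporter Slc17a6 was at 337 and 247 CPM.

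**Figure D2:**
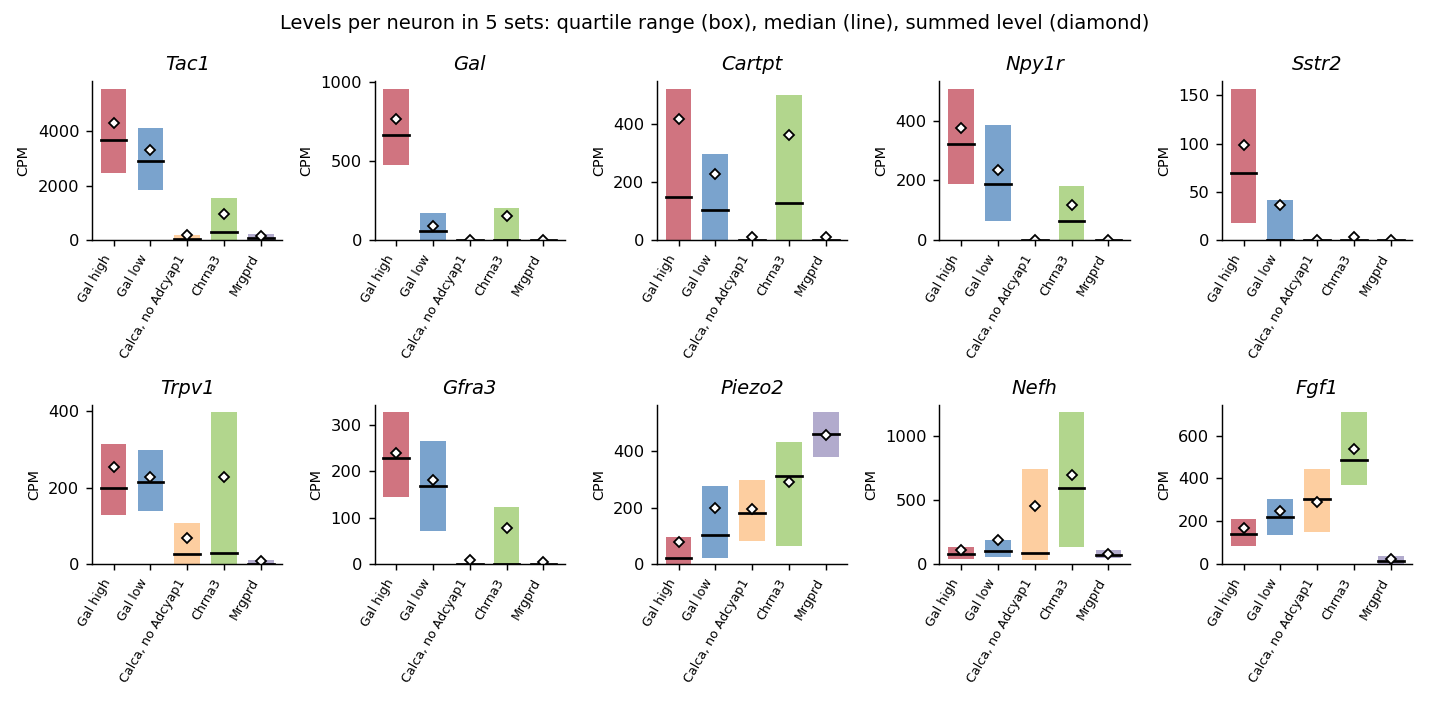
CPM of 10 genes in Gal-high and Gal-low peptidergic neurons and in 3 comparison sets: 234 neurons with Calca but Adcyap1 under 50 CPM, 84 Chrna3 neurons and 216 Mrgprd neurons. Boxes run from the lower to the upper quartile of single cells, lines are medians and diamonds the summed level, and the medians of Tac1, Npy1r and Sstr2 are highest in Gal-high cells (3661, 321 and 69.3 CPM), where that of Piezo2 is lowest (22.0 CPM).

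Receptors for peptides had the highest median of the 17 lists. Of 20 genes 7 entered, 6 of them higher and 1 lower by 2-fold or more, with a median log2 ratio of 2.53. Sstr2, the somatostatin receptor that marks a reported peptidergic subtype, had the highest ratio of the 7332 genes that entered. It stood at 71.1 CPM against 1.26 CPM, a log2 ratio of 5.82 (5.59 to 6.06). With no UMI allowed of Chrna3, Mrgprd, Nppb and Trpm8 this ratio was 4.24, and after thinning it was 5.19. Sstr2 was detected after thinning in 38.4% of peptidergic neurons, 1.67% of other neurons and 0.353% of glial barcodes. Npy1r, the Y1 receptor of neuropeptide Y, was at 315 and 25.9 CPM and was detected in 82.4% and 14.1% of thinned cells. Its lowest, median and highest values per peptidergic neuron were 0, 273 and 1317 CPM, while the upper quartile of the other neurons was 0. Oprm1, the µ-opioid receptor, was found at 537 and 213 CPM and in 733 of the 734 neurons. Galr1, a galanin receptor, stood at 27.4 and 4.76 CPM, Sstr1 at 24.2 and 3.45 CPM, and Calcrl, the shared core of the CGRP and adrenomedullin receptors, at 27.8 and 5.78 CPM. Npy2r was the lower gene, at 13.2 and 39.2 CPM.

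Genes reported as markers of peptidergic subtypes were present in part. Of 12 listed, 7 entered, 4 at least 2-fold higher and 1 lower than in the other neurons, with a median log2 ratio of 1.53. Besides Sstr2, Kit and Trpv1, the higher gene was Dcn, the matrix proteoglycan decorin, at 143 and 43.0 CPM. Dcn was detected after thinning in 24.9% of peptidergic neurons and 9.89% of glial barcodes, with a highest value of 3839.9 CPM. Its log2 ratio to other neurons was 1.73 with all neurons, 2.33 without those rich in glial markers and 1.09 after thinning. Dcn made up most of the 189 CPM of the fibroblast list, in which Col1a2 was at 15.3, Col1a1 at 6.85, Lum at 1.97 and Pdgfra at 1.04 CPM. Dcn was at 206 CPM in Gal-high and 60.1 CPM in Gal-low cells, while the fibroblast list was at 241 and 123 CPM and Lum at 1.59 and 2.45 CPM. Markers of other reported subtypes were low in level: Bmpr1b at 13.1 CPM, Avpr1a at 9.25 CPM, Adra2a at 7.32 CPM, Oprk1 at 6.39 CPM and Smr2 at 3.04 CPM. Avpr1a, the vasopressin receptor, was nevertheless at 0.213 CPM in other neurons, and Th, the catecholamine enzyme, at 17.2 and 40.8 CPM.

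Receptors for neurotrophic factors stood on both sides, with 3 higher and 3 lower of 11 and a median of 0.07. Gfra3, the artemin co-receptor, was at 215 and 37.0 CPM, a log2 ratio of 2.54 (2.49 to 2.59), and Kit, the stem cell factor receptor, at 224 and 35.5 CPM. Glial barcodes held 117 CPM of Kit, and without the neurons that reached 1000 CPM of glial markers its log2 ratio was 2.61. Gfra2, the neurturin co-receptor typical of nonpeptidergic neurons, was at 10.2 against 248 CPM, Ntrk3 at 14.3 against 95.6 CPM, and Gfra1 at 32.0 against 74.5 CPM. Receptors of inflammatory mediators had 6 higher and 5 lower of 13. Of the higher ones Lpar1 fell short of 2-fold with equal weight for each cell (log2 ratio 0.85) and after thinning (0.81). S1pr3, a sphingosine-1-phosphate receptor, was at 163 and 24.4 CPM, Ptgir, the prostacyclin receptor, at 67.4 and 21.5 CPM, and Ptger4, a prostaglandin E2 receptor, at 48.8 and 12.7 CPM. On the lower side stood Il31ra (2.72 and 86.9 CPM), Lpar3 (3.38 and 81.3 CPM) and Ptger3 (12.9 and 107 CPM). Il31ra marks itch neurons, and Lpar3 and Gfra2 go with nonpeptidergic neurons. The rule left out both classes through Nppb and Mrgprd, so these low levels can partly follow from the rule. S1pr3 was also present in glial barcodes (213 CPM), and its log2 ratio was 2.74 with all neurons and 2.89 without those that reached 1000 CPM of glial markers.

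Among TRP channels, Trpv1 was at 242 and 83.5 CPM, a log2 ratio of 1.53 (1.49 to 1.57), and was detected after thinning in 81.7% and 28.3% of cells. Its lowest, median and highest values in the peptidergic neurons were 0, 207 and 1103 CPM. Trpm3, another heat-activated channel, was at 358 and 102 CPM. Glial barcodes held 441 CPM of Trpm3, and its log2 ratio was 1.89 without the neurons rich in glial markers. Trpa1, the irritant channel, was at 51.5 and 38.8 CPM, with a median of 0 per peptidergic neuron and a UMI in 38.8% of them. In all, 2 of 8 TRP genes were at least 2-fold higher and 1 lower.

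Of 11 voltage-gated sodium channel genes, 0 were 2-fold higher and 3 lower (27.3%, against 4.65% of all genes). Their median log2 ratio was -0.17, against 0.13 for all genes. The nociceptor channels Scn9a and Scn10a were at 397 and 425 CPM and at 388 and 387 CPM, and Scn11a at 145 and 221 CPM. Lower were Scn1a, Scn8a and the beta subunit Scn4b, the last with 3.59 and 29.9 CPM. Pacemaker and calcium channels went the other way, with 6 of 9 higher, 1 lower and a median of 1.15. Of the higher ones Cacna2d2 fell just short of 2-fold with equal weight for each cell (log2 ratio 0.97) and after thinning (0.98). Cacna2d1, the gabapentin-binding subunit, was at 1614 and 573 CPM and Cacna1e, the R-type pore, at 83.0 and 14.3 CPM. Cacna2d3 was at 14.7 and 62.7 CPM. Of 15 potassium channels 4 were higher, among them the leak channel Kcnk2 (107 and 27.1 CPM) and the M-current subunit Kcnq5 (169.9 and 42.4 CPM), and 3 lower, among them Kcna1 (25.0 and 114 CPM). Kcnc1, another of the higher ones, fell short of 2-fold under the same settings, at log2 ratios of 0.93 and 0.91. Piezo2, the touch channel, was at 129 and 462 CPM, and P2rx3, the ATP channel, at 71.7 and 166 CPM.

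Neurofilament and axon genes had 1 higher and 1 lower of 10, with a median log2 ratio of -0.44. Nefl, the light neurofilament chain, was at 629 and 1316 CPM, and Nefh, the heavy chain of large myelinated neurons, at 139 and 266 CPM. The median of Nefh per cell was nonetheless 84.3 CPM in peptidergic and 77.0 CPM in other neurons, and the highest values were 3942 and 9717. Gap43, a growth cone protein, was the higher gene of this list at 1011 and 417 CPM. Of 17 transcription factors of sensory identity 1 was at least 2-fold higher, Hoxd1 (30.8 and 9.40 CPM), and 5 were lower, among them Casz1 (13.3 and 158 CPM), Zfhx3 (74.3 and 464 CPM) and Onecut2 (20.3 and 113 CPM). Runx1, which directs nociceptor subtypes, was at 304 and 378 CPM and Prdm12 at 168 and 160.1 CPM.

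Nerve injury genes had 5 higher and 1 lower of 13, with a median log2 ratio of 0.55. The higher ones were Gal and Gap43, already given, with Stmn4 (63.8 and 14.6 CPM), Jun (334 and 135 CPM) and Lmo7 (47.6 and 21.6 CPM), while Atf3, the usual marker of an injured neuron, was at 110.1 and 84.3 CPM. Immediate-early genes had 3 higher and 0 lower of 11, with Fos at 470.3 and 288 CPM. Of the 3, Egr1 fell short of 2-fold with equal weight for each cell (log2 ratio 0.76) and after thinning (0.77). Glial barcodes held 5266 CPM of Fos and 2089.9 CPM of Jun. Without the neurons rich in glial markers, the log2 ratio of Fos was 0.66 instead of 0.71 and that of Jun 1.49 instead of 1.30.

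Fgf1, the growth factor of the study's title, was at 203 CPM in the peptidergic neurons against 136 CPM in the other neurons, a log2 ratio of 0.58 (0.54 to 0.62). Single neurons had a lowest, median and highest Fgf1 of 0, 165 and 905 CPM, and thinned detection was 77.7% against 50.05% in other neurons and 21.2% in glial barcodes. It was higher in neurons with Calca but little Adcyap1 (288 CPM) and in Chrna3 neurons (536 CPM) and lower in Mrgprd neurons (23.0 CPM). The FGF list had 3 genes higher by 2-fold or more and 0 lower of 11. These were S100a13, a partner of Fgf1 in its export (589.9 and 282 CPM), Fgf11, an intracellular homologue (21.5 and 5.44 CPM), and Spred1, a feedback inhibitor of ERK signalling (129 and 50.8 CPM). Without the neurons rich in glial markers, 2 of 10 were higher and 1 lower. The lower one was Fgf12, at 241 and 495 CPM, a log2 ratio of -1.04. The receptor Fgfr1 was at 49.6 and 42.8 CPM.

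**Figure D3:**
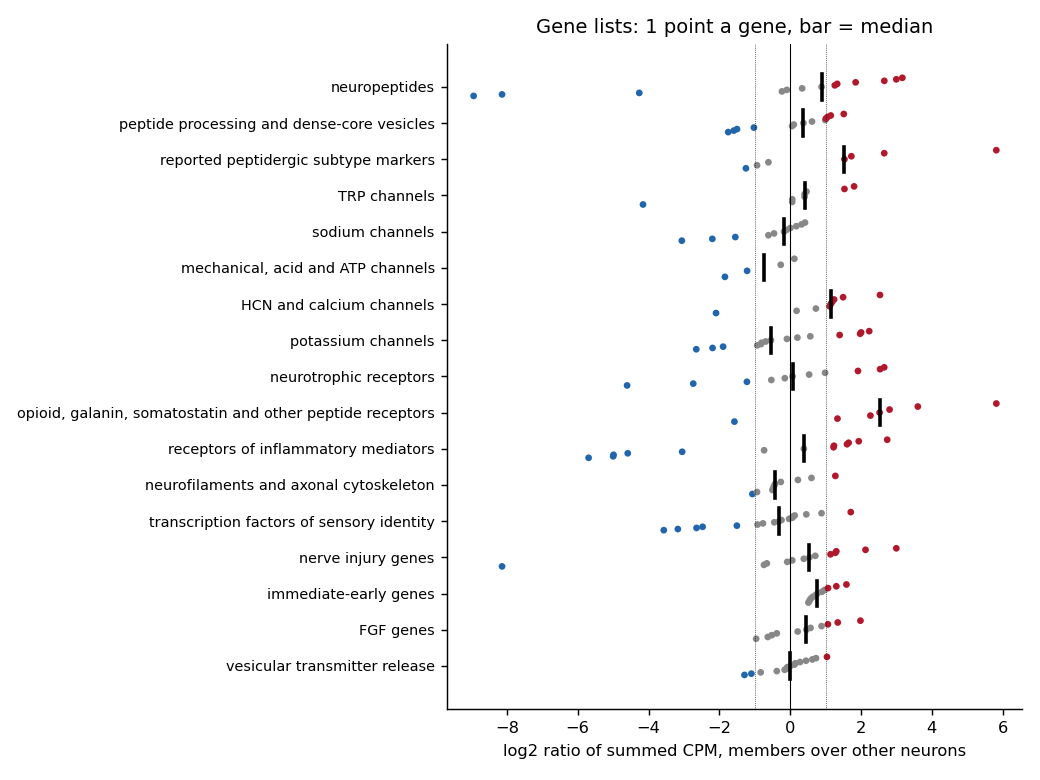
Log2 ratio of summed CPM, peptidergic over other neurons (x axis), for each gene that entered in 17 lists (y axis), with a bar at each list's median and dotted lines at a 2-fold difference. Peptide receptors lie furthest right with a median of 2.53. HCN and calcium channels follow with 1.15 among the channel lists, and the sodium channel median is -0.17.

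Beyond the lists, the genes with the highest ratios to other neurons included Ptprd, a receptor-type tyrosine phosphatase of synapse formation, at 809 against 75.7 CPM, with 0, 531 and 4197 CPM as lowest, median and highest value per peptidergic neuron. Gpx3, a secreted glutathione peroxidase, was at 333 and 30.9 CPM and detected after thinning in 83.0% and 14.8% of cells. Tlr4, the receptor of bacterial lipopolysaccharide, was at 23.7 and 1.22 CPM, detected in 18.7% and 1.04% of thinned neurons and in 3.18% of glial barcodes. Ror1, a Wnt-binding receptor kinase, was at 42.0 and 2.04 CPM. Glial barcodes had 56.8 CPM of Ror1, and its log2 ratio was 4.37 with all neurons and 5.05 without those rich in glial markers. Trpc7 (22.8 and 1.34 CPM), the amino acid transporter Slc7a3 (25.7 and 1.22 CPM), the zinc finger factor Bcl11a (56.0 and 6.05 CPM) and Rgs20, a regulator of G protein signalling (43.2 and 4.00 CPM), were also among the first 15, with Ankrd33b and the unnamed transcripts Gm40331, Gm31077 and D430036J16Rik. With no UMI allowed of Chrna3, Mrgprd, Nppb and Trpm8, log2 ratios fell from 4.37 to 3.60 for Ror1, from 4.08 to 3.43 for Trpc7 and from 4.40 to 3.66 for Gm40331. At the other end, after Sst and Nts, came Ccdc68, Serpina11, Lpar5, Wfdc2, Ctxn3 (8.39 and 319 CPM), Tmem45b (4.31 and 157 CPM), the serotonin receptor Htr1f (3.59 and 126 CPM) and Slc16a12.

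Another comparison set was the 234 neurons that passed the Calca threshold with Adcyap1 under 50 CPM. Many of them carried Mrgpra3 or Mrgprx1, listed as markers of another sensory class. These summed to 114 CPM (median per cell 72.5) against 4.31 CPM in the peptidergic neurons. Here 10.2% of 7307 genes were at least 2-fold higher in the peptidergic neurons with Adcyap1 and 4.64% lower. Against all other neurons the shares were 7.13% and 4.65%, so this set was no closer. Tac1 was at 3852 against 188 CPM and the log2 ratio was 4.36 (4.30 to 4.42), and Gal at 471 against 1.91 CPM. The middle 50% of single cells did not overlap for Tac1, at 2196 to 5095 CPM with Adcyap1 and 0 to 189 CPM without. Npy1r (315 and 1.06 CPM), Gfra3 (215 and 8.90 CPM), Kit (224 and 11.7 CPM) and Scg2 (826 and 175 CPM) were on the same side. On the other side were Gfra1 (32.0 and 239 CPM), the ETS factor Etv1 (49.3 and 306 CPM), Rgs5 (17.5 and 422 CPM) and Nefh (139 and 451 CPM). Calcb was at 366 and 436 CPM. Of the neuropeptide list 7 of 10 were 2-fold higher and 0 lower.

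The 84 Chrna3 neurons (Chrna3 at 200 CPM or more) had less Tac1 and Gal than the peptidergic neurons and a like level of Cartpt. Of 7405 genes 8.58% were at least 2-fold higher in the peptidergic neurons and 5.59% lower. Of 11 neuropeptide genes that could be compared, 4 were 2-fold or more above the Chrna3 neurons and 1 below. Tac1 was at 3852 and 959 CPM, with medians per cell of 3274 and 314, Gal at 471 and 154 CPM, and Cartpt at 332 and 361 CPM. Calca (6753 and 3339 CPM) and Adcyap1 (1307 and 777 CPM) had set the choice of the peptidergic neurons. Trpv1 summed to a like level (242 and 227 CPM), but its median per cell was 207 CPM in peptidergic and 28.7 CPM in Chrna3 neurons. Nefh (139 and 694 CPM), Fgf1, Ngfr (253 and 665 CPM) and Piezo2 (129 and 291 CPM) were higher in the Chrna3 neurons. Against the 216 Mrgprd neurons, nonpeptidergic nociceptors, 17.4% of 7348 genes stood higher by 2-fold or more and 6.67% lower. There Scg2 (826 and 24.4 CPM), Gap43 (1011 and 50.1 CPM), Ngfr (253 and 3.08 CPM) and Ptprn (261 and 3.02 CPM) stood higher, and Gfra2 (10.2 and 358 CPM) lower. The comparisons share the peptidergic neurons, and the median depth of 78067 UMIs in Mrgprd neurons was above the 46986 of the peptidergic ones.

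Splitting the peptidergic neurons at 300 CPM of Gal separated few genes. In Gal-high cells 107 of 7229 genes (1.48%) stood higher by 2-fold or more than in Gal-low cells, and 125 (1.73%) stood lower. Without the neurons that reached 1000 CPM of glial markers, 171 were higher, and with the split at 600 CPM the count was 56. Of 11 neuropeptide genes, which leave out Gal but include Calca and Adcyap1, 0 stood higher by 2-fold or more and 0 lower. Tac1 was at 4279 and 3301 CPM. Calca (7101 and 6304 CPM) and Adcyap1 (1507 and 1050.2 CPM) were bounded from below by the rule in both sets. Pcp4, a calmodulin-binding protein, had 488 CPM in Gal-high and 88.0 CPM in Gal-low cells, a log2 ratio of 2.47 (2.39 to 2.55), with medians per cell of 172 and 0. Kcnk3, the acid-sensitive leak potassium channel TASK-1, was at 181 and 47.5 CPM, with medians per cell of 142 and 16.7 CPM and upper quartiles of 237 and 78.5. The GABA receptor subunit Gabrg3 (109.6 and 24.6 CPM), the transcriptional coactivator Zcchc12 (113 and 25.7 CPM), the myo-inositol transporter Slc2a13 (86.0 and 19.6 CPM) and the synaptic adhesion protein Lrrtm4 (21.8 and 3.05 CPM) were also among the 12 highest, with Frmpd3, Abi3bp, Slc7a3, March1, B230216N24Rik and LOC108168967. Sstr2 was at 98.3 and 35.9 CPM and was detected after thinning in 50.8% and 20.6% of cells.

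The 12 genes lowest in Gal-high cells were further from a ratio of 1 than the 12 highest. Gm7271, an unnamed transcript, had a log2 ratio of -4.94 (-5.86 to -4.14), and Rgs5, a regulator of G protein signalling, one of -4.11 (-4.60 to -3.66). The ratio of Rgs5 was -6.19 (-7.32 to -5.25) without the neurons rich in glial markers and -3.04 after thinning. Rgs5 also marks mural cells, and the 5 mural markers, Rgs5 included, summed to 8.32 CPM in Gal-high and 44.1 CPM in Gal-low cells. Rgs5 alone made up 2.16 and 37.3 CPM of these sums, so nearly all of the gap was Rgs5. The transcription factors Onecut2 (3.08 and 42.5 CPM), Casz1 (2.05 and 27.9 CPM) and Lef1 (3.59 and 28.9 CPM) were among them, with Tmem233 (5.03 and 57.5 CPM), Car10 (6.11 and 45.7 CPM), Mctp1, Tspan12, Galntl6, Adarb2 and Gm31914. Of 17 sensory transcription factors 4 were at least 2-fold lower and 1 higher in Gal-high cells, with a median log2 ratio of -0.34 against -0.0042 for all genes. Outside the 12, Gal-high cells also had less of Osmr, the oncostatin M receptor (18.0 and 104 CPM), Gfra1 (13.7 and 55.5 CPM), Calcrl (13.3 and 46.4 CPM), Scn8a (7.70 and 29.1 CPM) and Piezo2 (76.5 and 197 CPM). Fgf1 was at 168 CPM in Gal-high and 247 CPM in Gal-low cells, a log2 ratio of -0.55 (-0.62 to -0.48), with medians per cell of 138 and 218 CPM and overlapping quartile ranges (85.5 to 209.7 and 133 to 305 CPM).

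**Figure D4:**
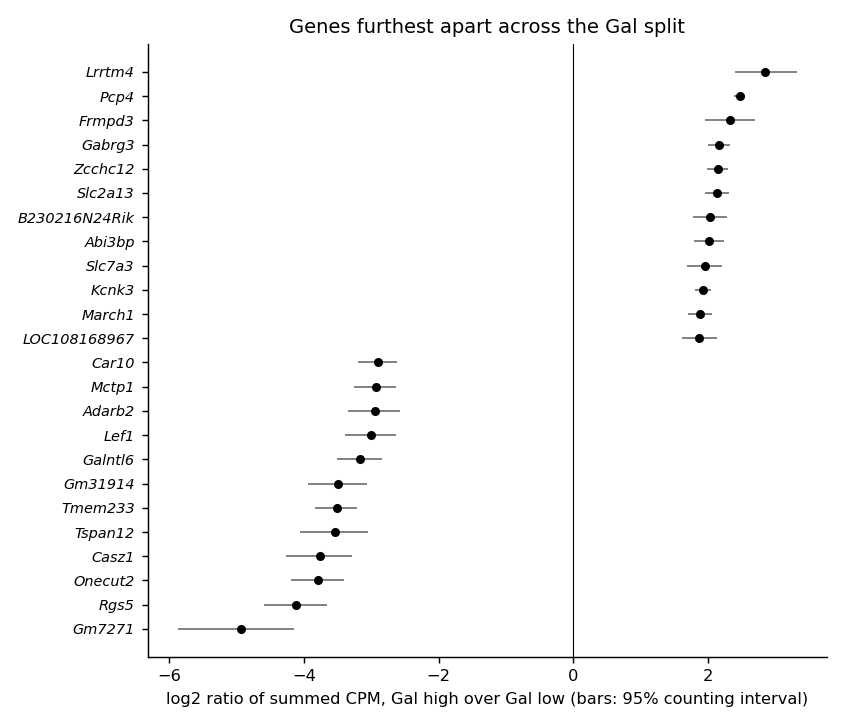
Log2 ratio of summed CPM, Gal-high over Gal-low peptidergic neurons, for the 12 highest and the 12 lowest genes, with 95% counting intervals as bars. The higher genes end at 2.84 (Lrrtm4) and the lower ones at -4.94 (Gm7271), whose interval is the widest.

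Transcripts of the 12 lower genes were not spread evenly over the Gal-low cells. After thinning, at least 3 of the 12 were detected in 146 of 301 Gal-low cells (48.5%), in 14 of 433 Gal-high cells (3.23%), in 1688 of the 2214 other neurons (76.2%) and, among these, in 226 of 234 neurons with Calca and little Adcyap1 (96.6%). Most neurons outside the peptidergic set thus carried at least 3 of them, while 155 of the 301 Gal-low cells did not. The 12 were chosen as the lowest in Gal-high cells, so the low share there follows from the choice. None of the 12 was detected in 69 Gal-low and 352 Gal-high cells. Because the 12 were picked from the same cells, the contrast between both Gal sets is a description, while the other neurons took no part in the choice. The 146 Gal-low cells had a median Adcyap1 of 758 CPM, below 1277 CPM in the other 155 Gal-low cells and 1502 CPM in Gal-high cells. They were deeper (medians of 56269 and 46115 UMIs) and fewer of them reached 1000 CPM of glial markers (28.1% and 47.7%), and the doublet caller marked 2 of the 146 and 0 of the 155. Sstr2 was detected after thinning in 7.53% of the 146, 32.9% of the 155 and 50.8% of Gal-high cells, and Osmr in 61.0%, 31.0% and 8.78%. Fgf1 was at 279.7 CPM in the 146, 210.1 CPM in the 155 and 168 CPM in Gal-high cells. Trpv1 was detected in 82.2%, 81.3% and 81.8%. Of the 48 peptidergic neurons with Adcyap1 under 400 CPM, 36 were among the 146.

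**Figure D5:**
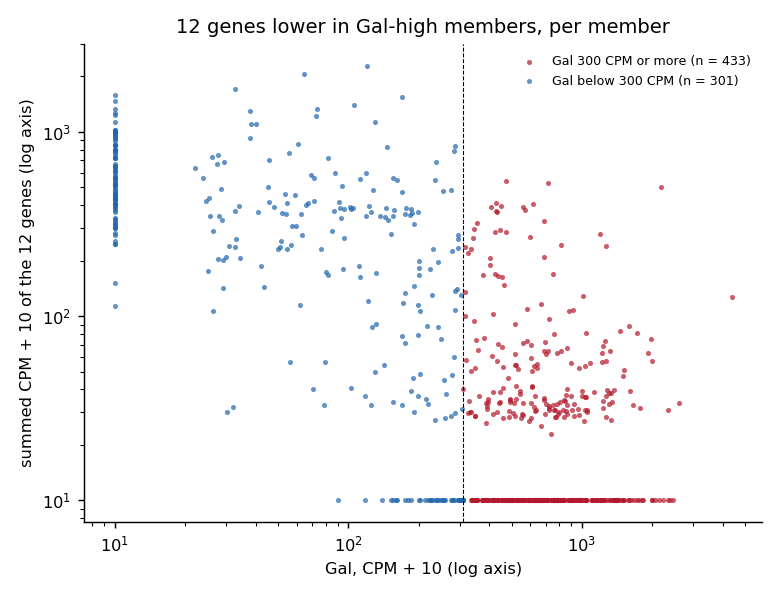
Gal (x axis) against the summed level of the 12 genes lower in Gal-high cells (y axis) in each of the 734 peptidergic neurons, in CPM plus 10 on log axes, with a dashed line at the 300 CPM split. Gal-low cells (blue) have a median of 338 CPM of the 12 genes and most Gal-high cells (red) lie on the bottom line, where none was detected, their median being 0.

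Over the 734 neurons, each scaled to its own total, the genes most like Gal by Spearman correlation, of 9958 detected in at least 25% of them, were 6330403K07Rik (0.63), Zcchc12 (0.62), Kcnk3 (0.60), Kcnk2 (0.56) and Bex1 (0.55). Furthest the other way were Ttll7, a tubulin-modifying ligase (-0.60), Nav1 (-0.59), Zdhhc2 (-0.57), Asap1 (-0.57) and Gna14, a G protein alpha subunit (-0.56). The median over all genes was -0.0105. These cells share 1 library, and Gal correlated with the UMI total at -0.30, so depth runs with Gal as well.

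The vector transcript, read from the 1 of 4 vector features with any UMI, was detected in 84 of 734 peptidergic neurons (11.4%, 9.23% to 13.97%), close to the 257 of 2214 other neurons (11.6%, 10.3% to 13.0%). Glial barcodes had it in 2 of 283 (0.707%, 0.0857% to 2.53%), at a median depth of 11951 against 46986 UMIs. At 10000 UMIs per cell the shares were 8.45% (6.54% to 10.7%) of peptidergic neurons, 8.04% (6.94% to 9.25%) of other neurons and 0.707% of glial barcodes. Detected neurons held a lowest, median and highest count of 1, 14 and 157 vector UMIs, and 48 of the 734 (6.54%) had at least 10. The share was 9.24% (6.68% to 12.4%) in Gal-high and 14.6% (10.8% to 19.1%) in Gal-low cells, or 6.93% and 10.6% after thinning, with intervals that overlap. Neurons with Calca and little Adcyap1 had it in 25.2% (19.8% to 31.3%), or 20.5% (15.5% to 26.3%) after thinning, which lies above the interval of the peptidergic neurons. Chrna3 neurons had 22.6% (14.2% to 33.0%), but 11.9% (5.86% to 20.8%) after thinning, an interval that overlaps that of the peptidergic neurons. Mrgprd neurons had 9.72% (6.12% to 14.5%), or 6.02% (3.24% to 10.1%) after thinning. Of the 341 neurons with a vector UMI 84 (24.6%, 20.2% to 29.6%) were peptidergic neurons of this kind, an interval that holds the 24.9% among all neurons. Among those 84, 40 were Gal-high (47.6%, 36.6% to 58.8%), against 393 of 650 without a vector UMI (60.5%, 56.6% to 64.2%).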

How the data were processed

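The deposited matrix gives raw UMI counts, whole numbers with no scaling by the authors; its header names Cell Ranger 8.0.1. The submitters' processing notes name the builds mm10 and GRCm39 with no role; the aligner settings and annotation were not given in the sources used here. Per the labels' protocols, the ganglia were dissociated with papain, Collagenase A and Dispase II and passed over an Optiprep gradient, which can set the shares of cell classes. Both tendon libraries were used here only to count shared barcodes.

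Counts were read with Python 3.11.15, numpy 2.4.6, scipy 1.17.1, pandas 2.3.3 and scanpy 1.11.5, and figures drawn with matplotlib 3.10.9. UMIs were summed over the cells of a set and scaled to the set's total (CPM). A gene entered a comparison with at least 50 summed UMIs over both sets and at least 20 CPM in the higher one, and was counted as higher or lower from a 2-fold difference. Ratios have exact conditional binomial intervals and shares Clopper-Pearson intervals, at 95%, and the scripts were tested on simulated data. Detection was compared after thinning each cell to 10000 UMIs. Other comparison sets were Chrna3 or Mrgprd at 200 CPM or more, with the remaining class genes under 50 CPM. No cell was removed for mitochondrial UMIs or as a doublet. Scrublet, run in scanpy, marked 550 of 22384 barcodes (2.46%), and leaving its calls out was an alternative.

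Named genes were the 15 highest and 10 lowest ratios against other neurons, the 12 highest and 12 lowest across the Gal split, the genes of the lists, and the 5 genes most correlated with Gal. The 5 genes at the low end of that correlation were added after their values were seen. Of the list genes 3 were matched by an older symbol (Fam19a1, Fam19a4 and Scn2a1). A few list genes count in the lists and are not reported here by name. The members and lists were chosen with earlier results of these data known. Alternatives were other thresholds of the rule and of Gal, of depth and of mitochondrial share, equal weight for each cell, thinning, no filter on low counts, at least 2 vector UMIs, and leaving out barcodes rich in glial markers.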

Additional observations from a re-analysis of the deposited data

How the results depend on the processing

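The share of peptidergic neurons among neurons, 24.9% as reported, was 23.3% with Calca at 2000 CPM or more, 23.3% with Adcyap1 at 400 CPM or more, 20.2% with no UMI allowed of Chrna3, Mrgprd, Nppb and Trpm8, and 22.8% without barcodes that reached 1000 CPM of satellite glial markers, a setting added after seeing the data. The Gal-high share was 71.4% with the split at 150 CPM and 34.5% with it at 600 CPM, and the genes at least 2-fold higher in Gal-high cells then numbered 183 and 56, against 107 as reported. Without the glial-rich barcodes they numbered 171; the cause was not tested. With no filter on low counts, 2619 genes were higher and 3224 lower across the Gal split, and 7002 higher and 2470 lower against other neurons, as genes with few UMIs then entered. The share with a vector UMI was 8.45% after thinning and 8.31% when at least 2 UMIs were asked for. Of 146 results on single genes with at least a 2-fold difference, 0 changed direction over 1965 values under these alternatives, but 537 values left the counting interval of the reported ratio, 70 moved by over 1.5 times and 43 came under 2-fold. Outside the interval were 89 of 144 after thinning, 79 of 142 with no UMI of the excluded genes, 74 of 144 with equal weight for each cell and 62 of 145 without the glial-rich barcodes. In the same order, 12, 11, 0 and 6 values moved by over 1.5 times. The ratios across the Gal split depended most on its threshold. With the split at 600 CPM, 34 of 38 values left the interval, 15 moved by over 1.5 times and 8 came under 2-fold, among them March1 and Piezo2. With it at 150 CPM these counts were 24 of 42, 9 and 0. The median log2 ratio of all genes against other neurons, 0.13, was 0.08 with equal weight for each cell or after thinning. No paired analysis was possible because the ganglia gave 1 pooled library, so no result has a spread between animals, and genes under 20 CPM in both sets were not compared.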
